A study of Mus musculus with 12 samples.

Results

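Helper cultures of mouse CD4+ T cells were compared with freshly sorted naive CD4+ T cells, to describe what the helper libraries had in common when each was set against the naive library. The comparison used 4 of the series' 12 samples, 1 RNA library each of naive, Th1, Th2 and Th17 cells. All came from spleen and lymph nodes of wild type C57BL/6J mice, with no statement of age or of which libraries shared animals. Naive CD4+ cells were sorted by surface markers, among them the absence of CD44 and CD25, and were either used fresh or stimulated for 3 days with 10 μg/ml each of plate-bound anti-CD3 and anti-CD28. The Th1 wells had 20 ng/ml IL-12 with an antibody that neutralizes IL-4, and Th2 wells had 20 ng/ml IL-4 with one against IFN-γ. Th17 wells had 20 ng/ml IL-6, 2 ng/ml human TGF-β1 and both antibodies, each neutralizing antibody being at 10 μg/ml. Every helper library therefore differed from the naive one by stimulation, time in culture, cytokines and antibodies together, and these cannot be told apart. For some of the genes, in the plots and near the end, the values of 3 wild type (WT) induced regulatory (iTreg) libraries, from cells stimulated for the same 3 days with 100 IU/ml IL-2 and 5 ng/ml TGF-β1, are set beside them.

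A naive T cell circulates in a resting state, kept there by factors such as Klf2 and Foxo1, and displays receptors that bring it into lymph nodes. When its antigen receptor and CD28 are engaged together, immediate response genes are switched on within minutes, and over the following days the cell grows, divides repeatedly and takes up far more glucose, lipid precursors and amino acids. Cytokines present during that time direct the daughter cells to Th1, Th2 or Th17 fates.

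Of 23700 listed loci, 22653 were at least 300 bp long with a successful estimate in all 4 libraries, and 11216 of these reached 0.5 FPKM (fragments per kilobase of transcript, scaled to the mapped reads) as the mean of the naive and the averaged helper level. Differences are helper minus naive on log2(FPKM + 0.5), so that changes of genes with levels near 0 are understated. A gene is said below to have risen or fallen where it was at least 2-fold higher or lower in each of the 3 helper libraries. With 1 library a group, no difference has a replicate check and no test was run. All 3 differences also share the single naive library, so a high or low value there moves all of them.

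By this definition 1762 loci rose (15.7% of those tested) and 489 fell (4.36%). Over the Th1 and Th2 libraries alone, without Th17, 899 loci fell. In any amount, 5761 loci (51.4%) were higher and 2738 (24.4%) were lower in all 3 helper libraries. Taken singly, the Th1 library had 3117 loci at least 2-fold above naive (27.8%) and 1077 below (9.6%). The Th2 library had 2931 above (26.1%) and 1291 below (11.5%). The Th17 library had 2571 above (22.9%) and 803 below (7.16%). Of the 3990 loci at least 2-fold up in any helper library, 44.2% were up in all 3, and of the 1629 loci down in any, 30% were down in all 3. The median absolute log2 difference from naive was 0.74, 0.75 and 0.61 for the Th1, Th2 and Th17 libraries, against 0.22 between Th1 and Th2, 0.38 between Th1 and Th17 and 0.43 between Th2 and Th17 cells.

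The balance between rises and falls depended on the scale. Summed FPKM over loci of at least 300 bp was 275219 in the naive library and 392303, 382604 and 347489 in the Th1, Th2 and Th17 libraries, and the median locus lay 0.33 (log2) higher in the helper cells. Rises made up 78.3% of the shared changes with the authors' scaling, 56.4% after the sums were made equal, 58.9% after scaling by the median of ratios and 47.2% after quantile normalization. The median of all loci then moved to -0.08, 0.01 and -0.11. Every one of the 489 falls remained a fall under each of these, and 1231, 1268 and 1022 of the rises remained, with no locus turning from one direction to the other. Equal sums and the median of ratios scaled each helper library down relative to the naive one. No fall could therefore be lost under them, and only rises could. Group medians below are to be read against 0.33. Reads implied by the deposited confidence bounds were summed only over loci with a single listed transcription start, a part of each library. They came to 18.5 M for the naive library and to between 12.4 M and 14.0 M for the helper libraries.

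**Figure D1:**
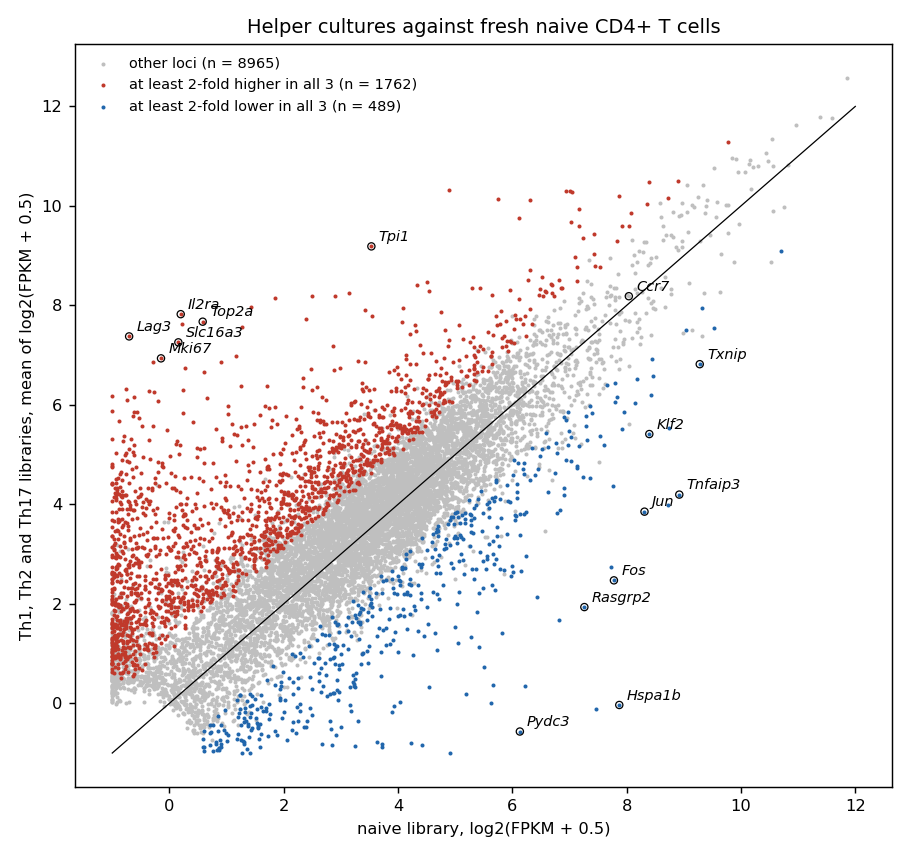
Level of each of the 11216 tested loci in the naive library (x axis) against the mean of the 3 helper libraries (y axis), both as log2(FPKM + 0.5), with a line of equality. Red points are the 1762 loci at least 2-fold higher and blue points the 489 loci at least 2-fold lower in all 3 helper libraries, and circled points are named genes.

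The labels were first held against the lineage genes. Tbx21, whose product T-bet drives the Th1 fate, stood at 35.5 FPKM in the Th1 library and at 0.0868, 0.0198 and 1.01 FPKM in naive, Th2 and Th17 cells. Gata3, the Th2 factor, was 102 FPKM in the Th2 library, and naive, Th1 and Th17 cells had 19.5, 9.77 and 5.31 FPKM. Il17a, the signature cytokine of Th17 cells, was 145 FPKM in the Th17 library and at most 0.096 FPKM in the other 3. Each of these genes was thus highest in the library labelled for it. The T cell genes Cd4 (233, 237, 249 and 199 FPKM in naive, Th1, Th2 and Th17) and Cd3e (196, 242, 199 and 235 FPKM) were high in all 4.

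Markers of other cells were mostly near 0. The 12 B cell markers summed to 1.76, 1.60, 2.86 and 3.78 FPKM in naive, Th1, Th2 and Th17 cells. The 9 measured markers of cytotoxic, natural killer and γδ lineages summed to 10.0, 7.42, 7.82 and 5.20 FPKM, nearly all of it Cd8b1 (9.28, 6.73, 7.39 and 4.83 FPKM), while Cd8a stood at 0.102 FPKM or less. Among myeloid markers Fcgr3 and Itgam were at most 1.45 FPKM in naive cells and fell. Cd68, also tested, did not fall, at 3.07, 12.9, 2.71 and 2.56 FPKM in naive, Th1, Th2 and Th17 cells. Of the stromal and endothelial markers Pecam1, which T cells also express, was 51.3 FPKM in naive cells and 17.2, 25.1 and 28.9 FPKM in the helpers. The dendritic cell and MHC class II markers summed to 2.56, 136, 207 and 18.9 FPKM. Most of that sum came from H2-Ab1, an MHC class II β chain (0.148, 97.2, 117 and 16.3 FPKM), the invariant chain Cd74 (1.87, 30.4, 29.3 and 2.02 FPKM) and, in Th2 cells, the transcription factor Batf3 (0, 6.77, 59.9 and 0 FPKM). The partner chain H2-Aa was at 0.322 FPKM or less and the dendritic marker Itgax at 0.0404 FPKM or less in all 4. The 4 libraries had Xist RNA (48.7 to 156 FPKM) and Y-linked transcripts at or near 0, whereas the WT iTreg libraries had Xist at 0.00949 FPKM or less and the Y-linked gene Eif2s3y at 55.6 to 68.9 FPKM. The part of these differences in the results was not tested. In bulk RNA, fewer cells of a type and less RNA per cell cannot be told apart.

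Genes of mitosis and chromosome segregation rose almost as a block. Of 34 such genes 33 rose, none fell, and their median difference was 5.19, the highest of the 32 gene lists drawn in the plot of shared changes by list. Mki67, the proliferation antigen Ki-67, stood at 0.403 FPKM in the naive library and at 110, 166 and 99.3 FPKM in Th1, Th2 and Th17 cells, log2 differences of 6.93, 7.53 and 6.79. Counting error alone, from the deposited bounds, left the Th1 difference between 6.80 and 7.06. Top2a, the topoisomerase that untangles sister chromosomes, was 0.997 FPKM in naive cells and 212, 260 and 153 FPKM in the helper cells. The ubiquitin-conjugating enzyme Ube2c, which serves the anaphase-promoting complex, went from 0.323 to 121, 136 and 95.8 FPKM. In each of these genes the Th2 library was highest, Th17 lowest of the helpers, and naive far below all 3.

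Cyclins and kinases of mitosis were also far higher in the helpers. Cyclin A2 (Ccna2) was 0.276 FPKM in naive cells and 74.6, 100 and 61.6 FPKM in Th1, Th2 and Th17 cells. Cyclin B2 (Ccnb2) was 0.371 FPKM and then 75.1, 86.0 and 47.5 FPKM. Aurora kinase B (Aurkb), of the chromosomal passenger complex, was 0.0998 FPKM and then 69.1, 98.1 and 47.1 FPKM, and its partner survivin (Birc5) 0.326 FPKM and then 68.9, 86.4 and 73.0 FPKM. The spindle proteins Tpx2 and Nusap1 and the kinesin Kif11 belonged to the same range, with helper levels between 31.0 and 74.8 FPKM and naive levels of at most 0.189 FPKM. The single member that did not rise was the condensin subunit Smc4, at 120 FPKM in naive cells and 96.0, 138 and 96.5 FPKM in the helpers.

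DNA replication genes followed with 24 rises and no fall among 38, and a median difference of 2.27. Uhrf1, which carries DNA methylation across replication, was 0.837 FPKM in naive and 46.6, 71.8 and 37.8 FPKM in Th1, Th2 and Th17 cells. Gins2, of the replicative helicase, was 0.516 FPKM and then 23.9, 31.5 and 18.6 FPKM. Mcm10, a helicase activator, was 0.0265 FPKM and then 9.21, 14.6 and 9.16 FPKM. Subunits of the MCM helicase ring had a naive level already, Mcm5 being at 7.66 FPKM against 38.1, 72.3 and 45.6 FPKM. The sliding clamp Pcna was at 96.8 FPKM against 184, 224 and 147 FPKM, short of 2-fold in Th1 and Th17 cells. Nucleotide synthesis was more mixed, with 9 rises (36%, against 15.7% of all loci) and no fall among 25 genes and a median of 1.06. The rises were led by thymidine kinase Tk1 (0.427 FPKM against 22.5, 39.6 and 20.3) and the ribonucleotide reductase subunit Rrm2 (1.53 FPKM against 44.3, 69.6 and 57.5). Purine enzymes such as Atic (34.2 FPKM against 33.9, 37.4 and 40.2) stayed within 2-fold.

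Promoter sequences of some mitosis and replication genes are shown because each list held a short motif more often than all promoters did. The motif was a different one in each list. RefSeq windows of 300 bases (250 before and 50 after the first listed start, GRCm38.p6) matched 8008 tested loci, of which 1233 rose and 337 fell, and 12 motifs were searched on both strands. The cell cycle homology region (CHR), searched as TTTGAA, is the site through which cell cycle genes are held silent in resting cells and turned on in dividing ones. It was found in 22 of the 28 mitosis windows (78.6%) against 11.6% of all windows, 15.7% of those of rising loci and 11.3% of those of falling loci. The CCAAT box, searched as CCAAT, was in 82.1% of mitosis windows and 39.8% of all. A site for E2F factors, searched as TTTNNCGC, was in 13 of 30 replication windows (43.3%) against 9.18% of all and 14.3% of mitosis windows. Most replication windows thus lacked it, and the CHR was in 4 of the 30 (13.3%). Below are the 120 bases before the start, 5′ to 3′ on the gene's strand, for the 3 mitosis genes and 2 replication genes that changed most among those with a match there, the CHR (TTTGAA or its complement TTCAAA) being in capitals in the first 3 and the E2F match in the last 2.
Mki67, chr7:135716380-135716499, minus strand: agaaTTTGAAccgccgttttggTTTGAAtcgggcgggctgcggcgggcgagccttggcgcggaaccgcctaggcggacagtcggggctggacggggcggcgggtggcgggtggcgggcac
Top2a, chr11:99024190-99024309, minus strand: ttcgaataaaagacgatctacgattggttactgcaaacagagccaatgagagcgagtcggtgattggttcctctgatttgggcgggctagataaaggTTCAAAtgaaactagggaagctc
Kif11, chr19:37376262-37376381, plus strand: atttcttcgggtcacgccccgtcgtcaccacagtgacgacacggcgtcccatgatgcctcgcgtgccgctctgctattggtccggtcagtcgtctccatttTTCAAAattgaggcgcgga
Uhrf1, chr17:56303217-56303336, plus strand: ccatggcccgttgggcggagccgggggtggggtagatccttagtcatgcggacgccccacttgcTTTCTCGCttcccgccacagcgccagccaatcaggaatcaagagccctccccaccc
Mcm6, chr1:128359706-128359825, minus strand: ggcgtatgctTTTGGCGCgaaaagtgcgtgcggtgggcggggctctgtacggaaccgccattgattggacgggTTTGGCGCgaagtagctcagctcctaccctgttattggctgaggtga

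The CHR match begins 23 bases before the start in Top2a and 19 in Kif11, and lies further upstream in Mki67, which holds 2 matches. Top2a, besides its CHR, has 3 CCAAT boxes in these 120 bases, counted on either strand, and Kif11 has 1. Mcm6 has 2 E2F matches counted without overlap, and a further match on the other strand overlaps the first. The letters TTTGAA also lie within the TCF/LEF motif CTTTGAA, which was found in 3 of the 28 mitosis windows. A match is a description of the letters and not evidence that a factor was bound. Motifs that did not stand apart included the E-box CACGTG (8.27% of rising windows, 10.7% of all) and AP-1 (TGANTCA, 5.84% and 4.57%).

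**Figure D2:**
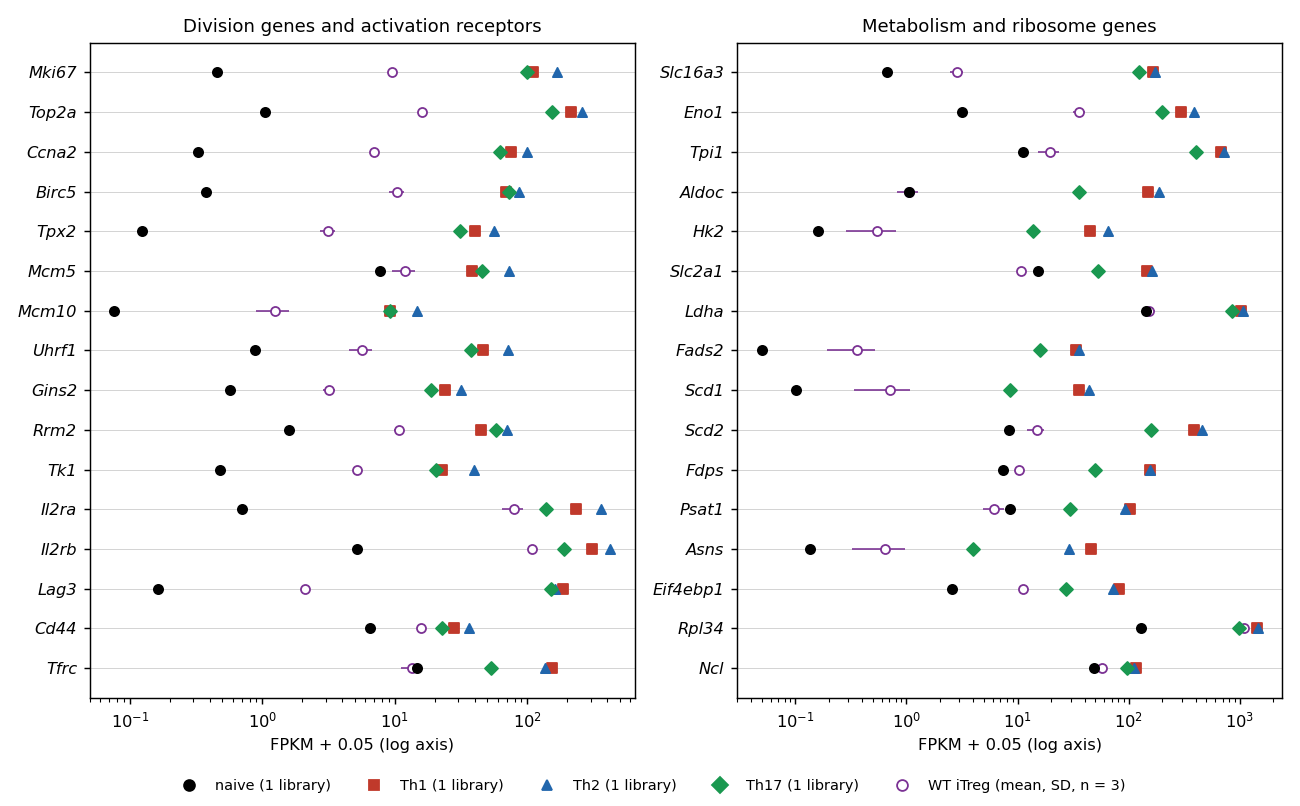
Levels of genes that differed between helper and naive cells, in FPKM with 0.05 added so that a value of 0 can be drawn on the log axis, with 1 symbol per library and the mean and SD of 3 WT iTreg libraries as open circles. For Mki67 the naive library is at 0.403 FPKM and the 3 helper libraries between 99.3 and 166 FPKM, with the iTreg mean between them at 9.50 FPKM.

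Receptors of activation were the second of the 32 lists drawn by median difference (2.94), with 14 rises and 1 fall among 22 genes. Of the named genes, Lag3 had the largest rise when each gene was ranked by the smallest of its 3 differences. It encodes an inhibitory receptor that binds MHC class II and stood at 0.113 FPKM in naive and 186, 162 and 151 FPKM in Th1, Th2 and Th17 cells. Its log2 differences of 8.25, 8.05 and 7.95 were nearly equal in the 3 conditions. Il2ra, the α chain that makes the IL-2 receptor high in affinity, was 0.647 FPKM and then 232, 361 and 138 FPKM, and its β chain Il2rb 5.13 FPKM and then 306, 422 and 187 FPKM. The shared γ chain Il2rg was high from the start, at 290 FPKM in naive cells and 222, 170 and 217 FPKM in the helpers.

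Costimulatory and inhibitory receptors rose alongside. The TNF receptor family members Tnfrsf9 (1.90 FPKM against 354, 516 and 35.9) and Tnfrsf4 (6.96 FPKM against 379, 536 and 119) were lower in Th17 than in Th1 and Th2 cells. Ctla4 had the opposite order, at 10.2 FPKM in naive and 192, 233 and 305 FPKM in Th1, Th2 and Th17 cells, and Pdcd1, which encodes PD-1, was 0.997 FPKM and then 23.5, 9.38 and 44.6 FPKM. The transferrin receptor Tfrc, which imports iron, was 14.7 FPKM and then 153, 137 and 53.1 FPKM. The adhesion receptor Cd44, whose absence was part of the sort for naive cells, was 6.40 FPKM and then 27.9, 36.4 and 22.6 FPKM. Since CD44 and CD25 (Il2ra) were used in sorting the naive cells, low naive values of both were partly chosen. The fall in this group was Cd69, an early activation marker that also retains cells in tissue, at 164 FPKM in the naive library and 37.7, 12.4 and 24.9 FPKM in the helpers.

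Genes listed for regulatory T cells rose as well, 11 of 18, with a median of 2.31. Among them were Il2ra, Ctla4, Icos, Tigit and Tnfrsf4, which are also activation receptors, and the signalling inhibitor Socs2 (0.0831 FPKM against 19.6, 61.2 and 25.0). Foxp3, the factor that defines these cells, did not rise: it was 0.952 FPKM in naive cells and 0.308, 0.226 and 1.35 FPKM in Th1, Th2 and Th17 cells.

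Glycolysis was the metabolic pathway with the highest share of rises, 20 of 24 genes and no fall, with a median of 2.79. The lactate exporter Slc16a3 went from 0.614 FPKM to 165, 172 and 124 FPKM. Triosephosphate isomerase Tpi1 was 11.1 FPKM in naive cells and 670, 724 and 406 FPKM in the helpers, and enolase Eno1 3.12 FPKM and then 292, 387 and 197 FPKM. Hexokinase Hk2, the entry step, was 0.110 FPKM and then 44.3, 65.6 and 13.7 FPKM, while Hk1 was 26.1 FPKM and then 123, 109 and 66.4 FPKM. The glucose transporter Slc2a3 was 11.1 FPKM and then 461, 523 and 44.4 FPKM, and Slc2a1 15.4 FPKM and then 145, 163 and 53.1 FPKM. In all of these the Th17 library was the lowest of the 3 helpers.

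The oxygen-regulated factor Hif1a, which drives glycolytic genes, did not have that order, at 19.3 FPKM in naive and 201, 143 and 259 FPKM in Th1, Th2 and Th17 cells. The prolyl hydroxylase Egln3, which marks HIF proteins for destruction and is itself a HIF target, was among the 15 largest rises, at 0.660 FPKM and then 292, 257 and 102 FPKM. So was the metal-binding protein Mt1 (0.0882 FPKM against 194, 64.6 and 39.1). The mitophagy receptor Bnip3, another known HIF target, was 1.37 FPKM and then 120, 183 and 70.6 FPKM. Values of Gapdh (25.0 FPKM against 187, 138 and 64.0), Eno1 and Aldoart2 (0.149 FPKM against 99.5, 94.4 and 37.7) are uncertain, since near-identical copies elsewhere in the genome can take or lend reads. Aldoart2 is a retrocopy of the aldolase gene Aldoa, which was 123 FPKM and then 1733, 1685 and 693 FPKM.

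Lipid synthesis rose in 19 of 30 genes, none fell, and the median was 2.21. The desaturases led: Fads2 was listed at 0 FPKM in naive cells and at 33.8, 36.0 and 15.8 FPKM in Th1, Th2 and Th17 cells, and Scd1 was 0.0523 FPKM and then 35.6, 43.5 and 8.53 FPKM. Scd2 was 8.35 FPKM and then 385, 456 and 158 FPKM. All 4 Scd genes, which lie side by side on chromosome 19 (mm9 44277778 to 44482199) and resemble each other, rose. In the mevalonate pathway the farnesyl diphosphate synthase Fdps was 7.39 FPKM and then 154, 154 and 49.7 FPKM. It was equal in Th1 and Th2 cells to the digits given and lower in Th17 cells.

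Sterol genes are shown by sequence because a CCAAT box was found in 16 of the 20 windows of this list (80%), against 39.8% of all windows, and NF-Y, the factor known for binding it, works beside the sterol factor SREBP. The boxes (CCAAT or its complement ATTGG) are in capitals in the 120 bases before the start of a sterol demethylase, Cyp51, and of an isomerase of the mevalonate pathway, Idi1.
Cyp51, chr5:4104698-4104817, minus strand: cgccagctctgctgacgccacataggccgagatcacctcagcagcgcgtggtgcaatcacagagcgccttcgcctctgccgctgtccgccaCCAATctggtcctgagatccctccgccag
Idi1, chr13:8885486-8885605, plus strand: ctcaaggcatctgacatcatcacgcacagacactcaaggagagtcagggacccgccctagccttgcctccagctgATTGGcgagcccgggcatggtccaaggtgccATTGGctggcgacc

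Cyp51 was 5.56 FPKM in naive cells and 73.5, 78.1 and 31.7 FPKM in the helpers, and Idi1 7.95 FPKM and then 57.2, 64.5 and 29.3 FPKM. Idi1 holds 2 boxes in this stretch and Cyp51 holds 1.

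Other biosynthetic groups moved less, and how many of their members passed depended on the scale. Of 43 cytosolic ribosomal proteins 12 rose (27.9%) with a median of 0.87, and with equal sums 7 rose with a median of 0.43. Their most changed member was Rpl34 (128 FPKM against 1430.2, 1445 and 978), and ribosomal protein genes as a class have many processed copies, so their values are uncertain. Proteasome subunits gave 7 rises among 33 (21.2%, median 0.77), and with equal sums 2 rises, with 1 fall. Oxidative phosphorylation gave 4 rises among 37 (10.8%, below the 15.7% of all loci; median 0.72), and 2 with equal sums. Ribosome biogenesis factors, which make the rRNA and assemble the subunits, gave no rise and no fall among 35, with a median of -0.22 and of -0.66 with equal sums. Their nucleolar members Bop1 (24.3 FPKM against 10.9, 8.62 and 25.8) and Polr1b (10.4 FPKM against 4.20, 3.88 and 9.32) were lower in Th1 and Th2 cells and near the naive level in Th17 cells.

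Amino acid supply held a few large changes. Asparagine synthetase Asns was 0.0846 FPKM in naive cells and 45.6, 28.9 and 3.94 FPKM in the helpers, and the serine pathway enzyme Psat1 8.54 FPKM and then 102, 93.3 and 29.4 FPKM. Both are known targets of the stress factor Atf4, whose own RNA was 167 FPKM in naive cells and 122, 102 and 65.5 FPKM in the helpers. The translation repressor Eif4ebp1, also a target of it, was 2.49 FPKM and then 82.5, 72.3 and 27.3 FPKM. The leucine transporter Slc7a5 was 12 FPKM and then 72.5, 36.6 and 16.8 FPKM, short of 2-fold in Th17 cells. Of the 15 amino acid and nucleoside transporters tested 4 rose (26.7%, against 15.7% of all loci) and 1 fell (6.67%, against 4.36%). The fall was the glutamine transporter Slc38a2 (108 FPKM against 40.6, 31.2 and 40.7). Myc, a transcription factor known for driving these programmes, was 42.6 FPKM in naive cells and 68.8, 41.9 and 87.1 FPKM in the helpers.

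**Figure D3:**
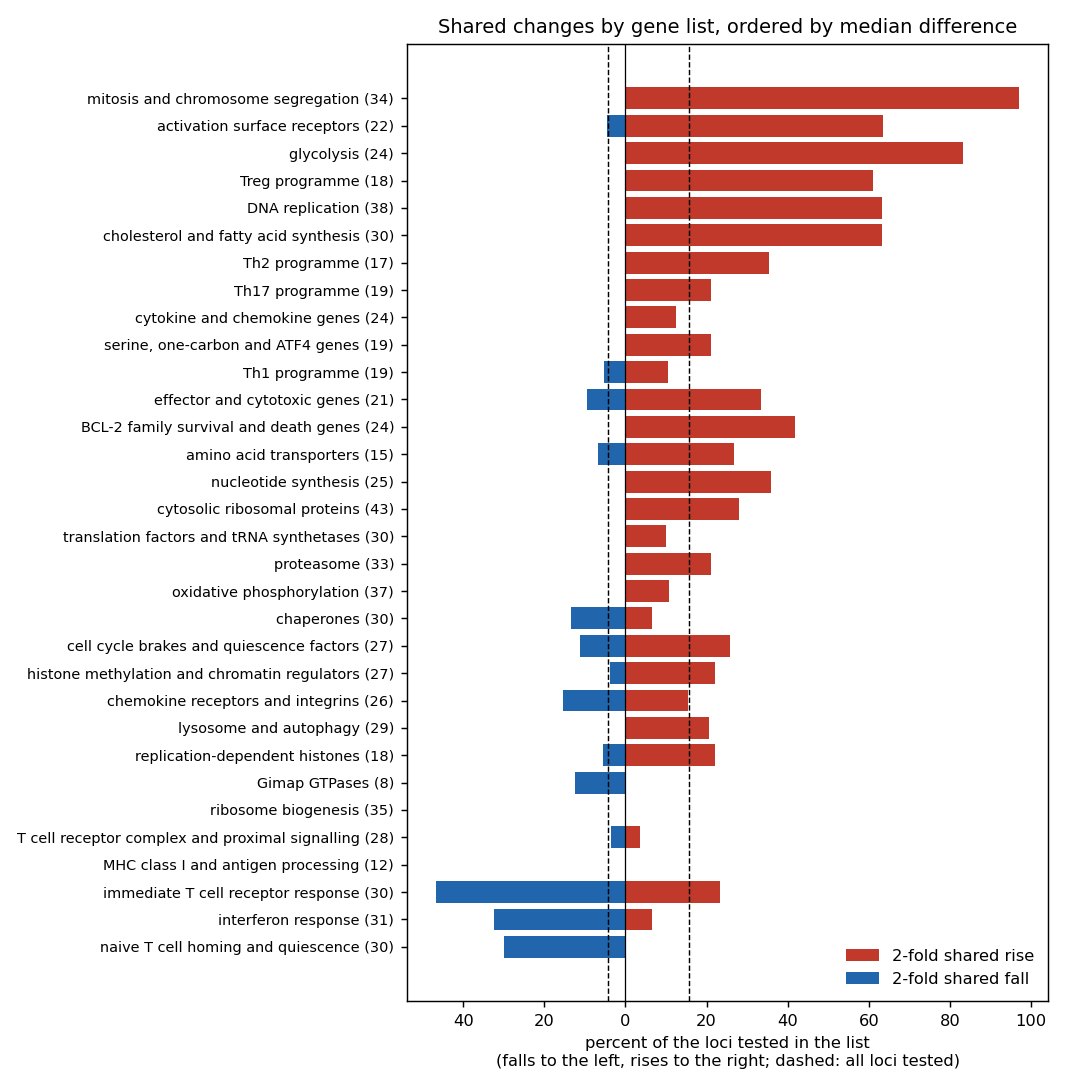
Share of tested loci in each of 32 gene lists that rose (right, red) or fell (left, blue) at least 2-fold in all 3 helper libraries, ordered by the median difference, with the number tested in brackets and dashed lines at the shares over all loci (15.7% and 4.36%). Mitosis genes are at the top with 97.1% rises, and naive homing genes at the bottom with 30% falls and no rise.

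On the falling side were immediate response genes of the T cell receptor, with a median of -1.15. The naive library held their transcripts at high levels. Of 30 genes in the list 14 fell (46.7%) and 7 rose (23.3%), against 4.36% and 15.7% over all loci. Fos, a component of AP-1, was 219 FPKM in naive cells and 4.74, 5.92 and 4.57 FPKM in Th1, Th2 and Th17 cells, log2 differences of -5.39, -5.09 and -5.43. Jun, its partner, was 317 FPKM and then 16.9, 8.82 and 18.1 FPKM. Dusp1, a phosphatase that switches off MAP kinases, was 210 FPKM and then 5.31, 9.96 and 4.32 FPKM. The naive library was the highest of the 4 by more than 10-fold in all of these genes.

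Brakes on NF-κB behaved alike. Tnfaip3, which encodes A20, was 484 FPKM in naive cells and 15.2, 22.3 and 16.7 FPKM in the helpers, and Nfkbia, the inhibitor IκBα, was 186 FPKM and then 37.5, 54.2 and 33.7 FPKM. The RNA-destabilizing protein Zfp36 was 248 FPKM and then 58.7, 44.3 and 73.5 FPKM. Ppp1r15a, a stress-induced phosphatase subunit, was 423 FPKM and then 18.2, 18.8 and 10.6 FPKM.

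Of 30 chaperone genes 4 fell (13.3%) and 2 rose (6.67%), with a median of 0.65, and 21 were higher in all 3 helper libraries by any amount. The falls were heat shock genes. The near-identical neighbours Hspa1a (176 FPKM against 0.412, 0.626 and 0.277) and Hspa1b (234 FPKM against 0.50, 0.641 and 0.316), which encode the inducible HSP70, gave the largest falls of all named genes, though reads cannot be assigned surely to one copy. Their co-chaperones Dnajb1 (109 FPKM against 33.8, 29.5 and 32.9) and Hsph1 (69.7 FPKM against 13.2, 9.88 and 18.7) fell too. The rises were Canx and Pdia6, which serve the endoplasmic reticulum. The constitutive Hspa8 was 540 FPKM in naive cells and 882, 633 and 647 FPKM in the helpers. The naive cells were sorted just before use while the helper cells had 3 days in culture after sorting, so activation and time since sorting cannot be told apart for these genes.

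The 7 immediate response genes that rose included other members of the Fos, Egr and Nr4a families. Irf4, which in T cells follows the strength of receptor signalling, was 4.72 FPKM in naive cells and 162, 251 and 229 FPKM in the helpers. Fosl2, an AP-1 member, was 8.33 FPKM and then 51.8, 40.7 and 33.9 FPKM, and the orphan receptor Nr4a3 5.03 FPKM and then 23.4, 26.4 and 15.7 FPKM. Egr2 and Egr3 had helper levels between 14.2 and 25.9 FPKM against 4.52 and 5.57 FPKM in naive cells. Batf, which pairs with Irf4, was 18.7 FPKM and then 35.6, 82.4 and 66.7 FPKM, short of 2-fold in Th1 cells. So within 1 gene list, Fos and Jun were low and Irf4 and Fosl2 high in the same helper libraries.

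The TATA box, searched as TATAAA, was in 6 of the 22 immediate response windows (27.3%) and in 13.1% of falling windows, against 6.61% of all and 6.49% of rising windows. It is shown for the only 2 genes of the list that changed in all helper libraries and hold it in these 120 bases, Fos, which fell, and Irf4, which rose, with the capitals marking it.
Fos, chr12:85473770-85473889, plus strand: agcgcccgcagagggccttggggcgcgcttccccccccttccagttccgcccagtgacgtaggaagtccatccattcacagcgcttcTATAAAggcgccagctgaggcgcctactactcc
Irf4, chr13:30749113-30749232, plus strand: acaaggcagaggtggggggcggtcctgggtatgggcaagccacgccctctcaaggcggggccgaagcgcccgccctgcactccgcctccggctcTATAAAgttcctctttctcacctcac

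The box begins 33 bases before the start in Fos and 26 bases before it in Irf4, so the same element stands at a similar distance in a gene that fell and in one that rose. ETS sites, searched as CCGGAAG, were less common both in rising (14.8%) and in falling windows (10.4%) than in all (19.8%).

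**Figure D4:**
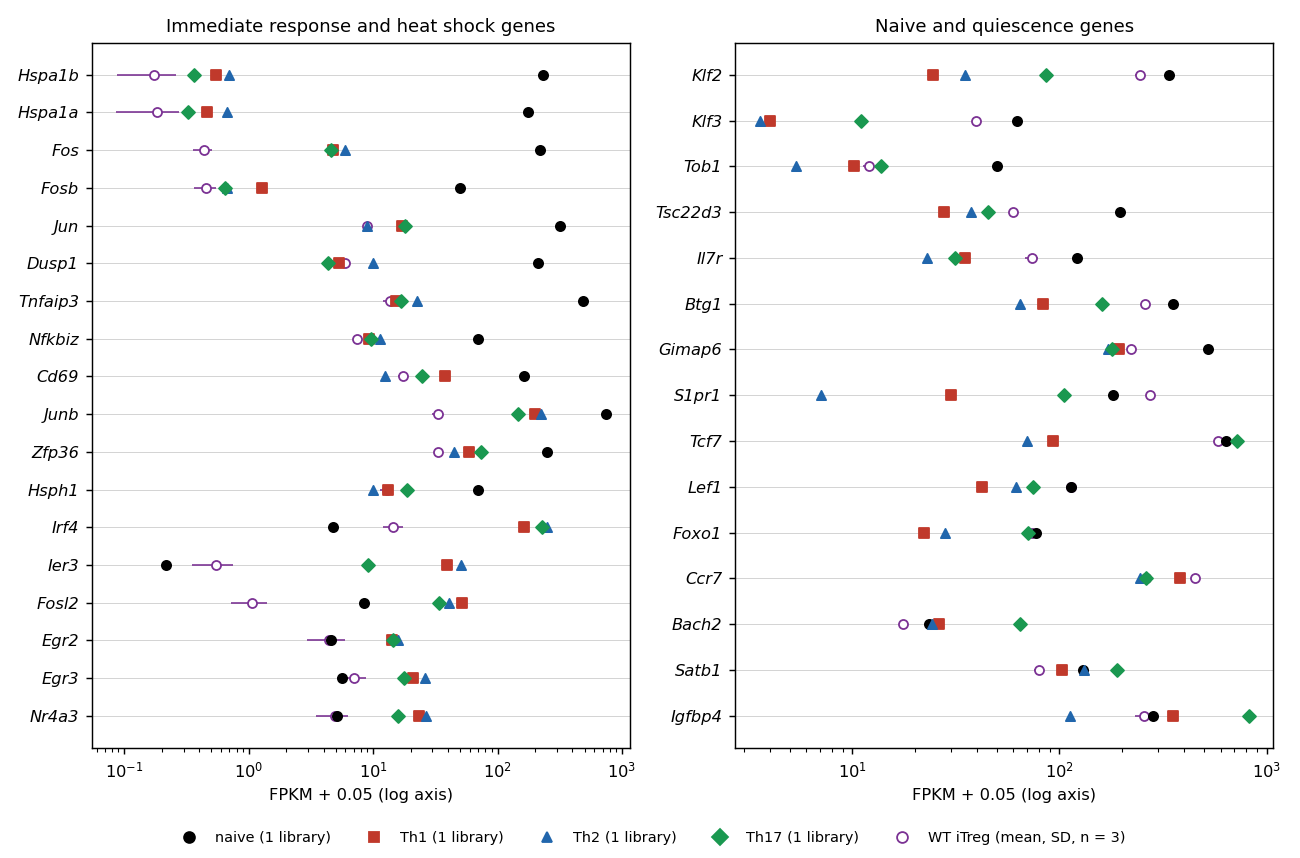
Levels of immediate response, heat shock, naive and quiescence genes in FPKM with 0.05 added, on a log axis, with 1 symbol per library and the mean and SD of 3 WT iTreg libraries as open circles. For Fos the naive library is at 219 FPKM and the helpers between 4.57 and 5.92 FPKM, whereas for Tcf7 the Th17 library, at 720 FPKM, is next to the naive one at 635 FPKM.

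Genes of naive homing and quiescence gave 9 falls and no rise among 30, with the lowest median of the lists drawn (-1.44), and other scalings raised the falls to between 13 and 14. Klf2, which keeps T cells resting and recirculating, was 336 FPKM in naive cells and 24.5, 35.1 and 86.5 FPKM in Th1, Th2 and Th17 cells, and Klf3 62.2 FPKM and then 3.98, 3.52 and 11 FPKM. The IL-7 receptor Il7r, which sustains naive cells, was 122 FPKM and then 35.1, 22.9 and 31.4 FPKM. The list of cell cycle brakes and quiescence factors was mixed, with 7 rises (25.9%) and 3 falls (11.1%) among 27 loci and a median of 0.64. Both shares were above those over all loci, 15.7% rises and 4.36% falls. With equal sums the list had 6 rises, 4 falls and a median of 0.21. The falls were the antiproliferative genes Tob1 (50.1 FPKM against 10.2, 5.29 and 13.7) and Btg1 (353 FPKM against 83.5, 64.2 and 161) and Txnip, which limits glucose uptake (620 FPKM against 131, 64.0 and 168). The rises were the kinase inhibitors Cdkn1a, Cdkn2c and Cdkn2d, the Myc antagonist Mxi1, Ccng2 and the kinases Cdk4 and Cdk6, which promote division.

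Several well known naive genes were lower in Th1 and Th2 cells and near or less far below their naive level in Th17 cells. Tcf7, the factor TCF-1, was 635 FPKM in naive cells, 93.0 and 69.7 FPKM in Th1 and Th2 cells, and 720 FPKM in Th17 cells. Foxo1 was 77.5 FPKM and then 22.1, 28.0 and 70.9 FPKM, and the exit receptor S1pr1 182 FPKM and then 30, 7.05 and 106 FPKM. The lymph node homing receptor Ccr7 stayed within 2-fold of its naive level of 262 FPKM in every helper library (382, 245 and 262 FPKM). Bach2, the repressor the series is about, was 23.4 FPKM in naive cells and 26.2, 24.1 and 64.6 FPKM in the helpers.

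The largest falls outside these lists included Rasgrp2, an activator of Rap1 used in integrin adhesion, at 153 FPKM in naive cells and 3.06, 2.78 and 4.29 FPKM in the helpers. Dtx1, a Notch pathway ubiquitin ligase, was 48.9 FPKM and then 1.10, 0.370 and 0.220 FPKM, and Hsd11b1, which activates glucocorticoids, 36.0 FPKM and then 0.808, 0.162 and 1.20 FPKM. LOC547349, a locus on chromosome 17, was 29.6 FPKM in naive cells and at most 1.24e-05 FPKM in the helpers. Signalling parts of the T cell receptor were mostly retained, with 1 rise (Malt1) and 1 fall (Grap2) among 28 genes. That is 3.57% each, against 15.7% rises and 4.36% falls over all loci.

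Interferon response genes gave 10 falls (32.3%) and 2 rises (6.45%) among 31, with a median of -1.41. Over all loci 4.36% fell and 15.7% rose. Irf7, which amplifies interferon signalling, was 38.3 FPKM in naive cells and 5.53, 0.567 and 1.99 FPKM in the helpers, and Rtp4 12.7 FPKM and then 0.0688, 0.0678 and 0.0751 FPKM. The neighbouring Ifit genes fell together, in a run on chromosome 19 (mm9 34625184 to 34724499) that counts Ifit2, Ifit3 and Ifit1 among its 5 loci. Gbp2 and Irf8 rose instead, Gbp2 being 19.6 FPKM and then 765, 67.8 and 745 FPKM. Irf1 was 147 FPKM in naive cells and 117, 18.3 and 22.9 FPKM in the helpers. The Th2 and Th17 wells, but not the Th1 wells, had an antibody against IFN-γ, and its part in these levels was not tested.

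In a cluster on chromosome 1, 8 of 10 genes fell. It holds the Pyhin genes, whose products have pyrin domains and, in most of them, a DNA-binding HIN domain, and some of them are induced by interferon. In naive cells Mndal was 112 FPKM, Ifi203 74.0, Pydc3 69.6 and Pyhin1 45.1 FPKM. In the helpers Mndal was 9.60, 0.781 and 1.99 FPKM, and Ifi203 2.97, 0.164 and 0.393 FPKM. Pydc3 was 0.237, 0 and 0.333 FPKM and Pyhin1 2.32, 0.0564 and 2.37 FPKM. Th2 cells were the lowest for these 4 genes. Aim2, the DNA sensor at one end, did not fall by the definition, at 8.10 FPKM and then 5.47, 3.64 and 8.17 FPKM. Neither did Ifi204, at 1.18 FPKM and then 0.534, 0.121 and 0.153 FPKM, which was short of 2-fold in Th1 cells on the scale used. The members resemble each other in sequence, so the split of reads among them is uncertain. All loci of 2 runs of 4 neighbours fell here, BC094916 to Pydc3 (mm9 chromosome 1, 175451442 to 175628523) and Mndal to Ifi205 (175787351 to 175961886).

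**Figure D5:**
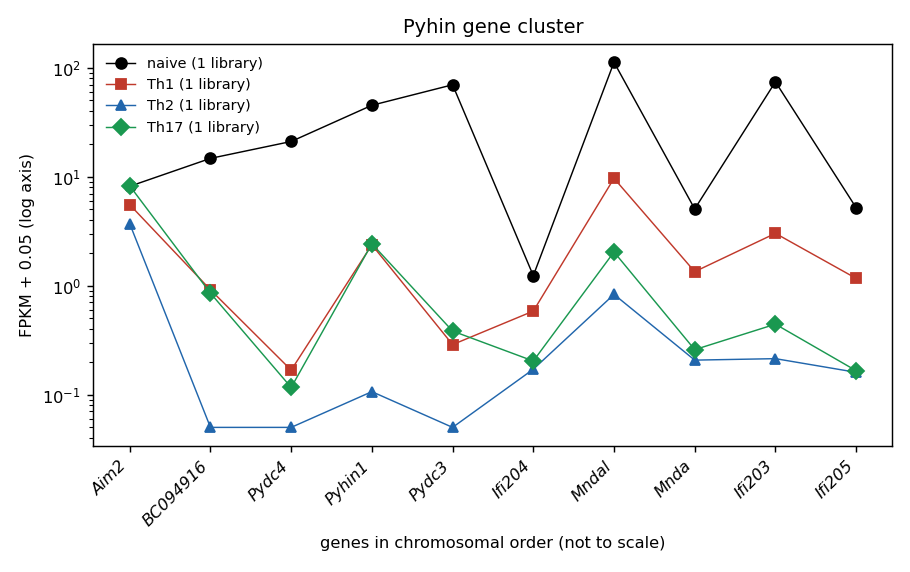
Levels of 10 genes of the Pyhin cluster in chromosomal order, in FPKM with 0.05 added on a log axis, with 1 line per library. Aim2 is close in all 4 libraries, while from BC094916 to Ifi205 the naive library is above the 3 helpers.

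Effector and survival genes had shared and private changes. Of 21 effector and cytotoxic genes 7 rose (33.3%) and 2 fell (9.52%). The falls were Prf1, at 7.15 FPKM in naive cells and at most 2.93 FPKM in the helpers, and Fasl, at 6.10 and at most 2.42 FPKM. The annexin Anxa2, a membrane-binding protein, was 2.17 FPKM in naive cells and 427, 319 and 112 FPKM in the helpers, and the galectins Lgals1 (42.7 FPKM against 281, 314 and 397) and Lgals3 (0.375 FPKM against 30.4, 29.3 and 25.8) rose too. Granzyme B, Gzmb, did not, at 0.362 FPKM in naive cells and 251, 42.6 and 0.339 FPKM in the helpers. Of 24 cytokine and chemokine genes 3 rose (12.5%, below the 15.7% of all loci). They were Lif (0.219 FPKM against 22.1, 96.0 and 50.0), Csf1 and Tnfsf14. Others were high in 1 library, such as Il17f (668 FPKM in Th17 and at most 0.191 FPKM elsewhere). In the BCL-2 family 10 of 24 rose (41.7%), and 4 with equal sums, among them the survival gene Bcl2l2 (0.563 FPKM against 13.7, 10.5 and 7.95). The cell cycle inhibitor Cdkn1a rose beside the division genes, from 0.599 FPKM to 82.1, 86.4 and 7.71 FPKM.

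The WT iTreg libraries lay far from the helpers in some genes and near them in others. Mki67 was 9.50 ± 0.53 FPKM in iTreg cells (SD, n = 3) against at least 99.3 FPKM in the helpers and 0.403 FPKM in naive cells. Slc16a3 was 2.80 ± 0.39 FPKM (SD, n = 3) against at least 124 FPKM in the helpers. Lag3 was 2.03 ± 0.11 FPKM (SD, n = 3) against at least 151 FPKM. Other activation receptors were nearer to the helpers: Icos was 48.1 ± 1.7 FPKM (SD, n = 3) against 52.0 to 58.2 FPKM, and Ctla4 132 ± 17 FPKM (SD, n = 3) against 192 to 305 FPKM. Pdcd1, at 18.8 ± 2.9 FPKM (SD, n = 3), lay within the helper range of 9.38 to 44.6 FPKM. In the Pyhin cluster Mndal was 121 to 127 FPKM and Ifi203 59.9 to 61.0 FPKM in the iTreg libraries, near their naive levels. Other members of the cluster were not near them. Pydc3 (19.1 to 22.6 FPKM against 69.6 in naive cells) and Pyhin1 (24.0 to 25.9 against 45.1) were lower in iTreg cells. Mnda (11.7 to 13.2 FPKM against 5.00) and Ifi205 (10.3 to 11.7 against 5.14) were higher. Klf2 was 246 ± 14 FPKM (SD, n = 3) against 336 FPKM in naive cells and at most 86.5 FPKM in the helpers. For Fos the iTreg level was 0.384 ± 0.075 FPKM (SD, n = 3), below all 4 libraries, so in this gene the naive library was the one apart. The iTreg cells share the stimulating antibodies and their time with the helper cells and differ in cytokines, in the neutralizing antibodies, of which their wells are listed with none, and, by the Xist and Y-linked transcripts, in the sex of the mice. The iTreg libraries also held B cell markers summing to between 19.4 and 84.0 FPKM. The part of these in the differences was not tested.

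Bach2 peaks, called in iTreg cells from 1 ChIP library, lay within 10 kb of the start of 43.2% of rising loci, 44.6% of falling loci and 41.5% of all 10995 tested loci with a known strand. The 3 shares were close to each other.

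Transcript length was related to the difference. Over the 10730 loci with an annotated transcript, split by length into 5 groups of near equal size, the median difference was 0.62 in the group with the shortest transcripts (up to 1650 bases) and 0.40, 0.30, 0.20 and 0.14 in the others, in order of length. The share that rose was 21.1% among the shortest and 12.1% among the longest transcripts. The part of length in the group medians was not tested.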

How the data were processed

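RNA was sequenced in 1 naive, 1 Th1, 1 Th2 and 1 Th17 library and in 3 WT iTreg libraries, with 50-bp reads from TruSeq libraries made of 200 ng RNA, per the labels' protocols. The deposited FPKM values and their confidence bounds were made by the authors with TopHat and Cufflinks on mm9 from unique reads, per the labels' protocols. For TopHat, Cufflinks and the annotation, versions are not given in the sources used. The labels give all libraries the same run date. The deposited peak list was called by the authors with MACS 1.4.0beta at a p-value cutoff of 1e-05, per the file headers, and gives each peak's tag count. It also gives a score of 10 times the −log10 p-value, a fold enrichment (a ratio to local background) and an FDR in percent, all deposited by the authors per the file headers.

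Differences of log2(FPKM + 0.5) were computed with pandas 2.3.3 and numpy 2.4.6 in Python 3.11.15, tested on simulated data, and drawn with matplotlib 3.10.9. Loci under 300 bp, with an estimate that failed in any of the 4 libraries, or with a level under 0.5 FPKM were left out. The 2 bounds lie 2 Poisson SD from the FPKM, so the reads behind a value can be estimated. A whole number within 0.02 came out for only 73.9 to 78.6% of low loci, so read numbers were not rebuilt and count models were not used. The 40 gene lists, the 12 motifs and the named genes were chosen with earlier results of these data known, and the motifs and windows printed were picked after their matches were seen. Named genes are the 15 largest shared rises with at least 20 FPKM in each helper library and the 15 largest falls with at least 20 FPKM in the naive one, ranked by the smallest of the 3 differences. MicroRNA, snoRNA, Gm and Rik symbols and repeated symbols were left out of these. Added to them are up to 4 members per list, members that moved the other way, a set of well known genes, and up to 3 loci per helper library that moved opposite to the other 2. Other list members are named as examples after their values were seen. Strand and transcript length came from GENCODE of the same build and promoters from RefSeq (GRCm38.p6). The Bach2-deficient libraries were not used here. Alternatives to scale, pseudocount, filter, fold and libraries are in the closing section. A few genes are not reported here.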

Additional observations from a re-analysis of the deposited data

Results flagged for a closer look

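A few loci moved at least 2-fold from naive in 1 helper library and at least 2-fold the other way in the other 2. They were counted among loci with at least 10 FPKM in at least 1 of the 4 libraries. MicroRNA, snoRNA, Gm and Rik symbols were left out. This gave 2 loci for the Th1 library, 4 for Th2 and 16 for Th17. With 1 library a group, these differences between conditions were not tested. In Th1 cells, Ifng, the signature cytokine, was 2.05 (log2) above naive and listed at 0 in Th2 and Th17 cells, from 2.60 FPKM in naive and 12.4 FPKM in Th1 cells. Iigp1, an interferon-induced GTPase, was 2.05 above naive in Th1 cells, with 6.57 FPKM in naive cells and 28.8, 0.159 and 1.5 FPKM in Th1, Th2 and Th17 cells. In Th2 cells, Ly6a, which encodes Sca-1, had a log2 difference of -2.57, with 53.8 FPKM in naive cells and 680, 8.62 and 317 FPKM in the helpers. Tubb2b, a β-tubulin, had one of -1.63 (6.45 FPKM against 26.3, 1.75 and 34.2), and the tetraspanin Tspan9 one of 1.26 (5.21 FPKM against 1.82, 13.1 and 1.67). In Th17 cells, Pglyrp1, a peptidoglycan recognition protein, had a difference of -2.28 (6.63 FPKM against 48.0, 54.7 and 0.969). The phosphatase Acpp had one of 2.18 (5.28 FPKM against 0.529, 0.548 and 25.7) and the apolipoprotein gene Apol9b one of 2.64 (1.54 FPKM against 0, 0 and 12.2).

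Outside the loci compared, 44 loci under 300 bp were at least 2-fold higher in all 3 helper libraries and listed at 0 in naive cells. Of the short loci, 55 were above 0 in the naive library against 145, 161 and 159 in Th1, Th2 and Th17 cells. The microRNA locus Mir682 was listed at 0 in naive cells and at 12086, 12355 and 9637 FPKM in the helpers. The 9 listed copies of Mir684-1 had only 3 distinct Th1 values, so near-identical copies cannot be told apart there.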

How the results depend on the processing

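No paired analysis was possible because each group has 1 library. With equal FPKM sums, falls came to 952 and loci lower in all helpers to 4495. With median-of-ratios scaling these were 884 and 4270, and with quantile normalization 1144 and 4843, with 1022 rises and 3809 loci higher in all helpers. A 1.5-fold threshold gave 3051 rises and 1027 falls, and a 4-fold threshold 577 and 118. Leaving out 1 helper library gave between 1838 and 2575 rises and between 544 and 899 falls, with 899 falls when Th17 was left out. It gave between 5940 and 6333 loci higher and between 2947 and 3669 lower in all remaining helpers. Asking that confidence intervals not overlap kept 1745 rises and 485 falls. Bach2 peak shares for rising, falling and all loci were 20.9, 21.0 and 21.5% within 2 kb, 81.0, 80.9 and 79.3% within 50 kb, and 28.4, 29.3 and 26.4% at scores of at least 100. Among lists whose median lay at least 1 (log2) from that of all loci, 3 changed sign relative to it. These were stromal and endothelial markers (0.059) and sex-linked transcripts (-0.018) with no filter, and monocyte markers (0.20) with a filter of 2 FPKM. With the main filter these 3 lists had only 1, 1 and 3 tested loci, so a change of filter changed most of their members. Lists nearer to the median of all loci were not counted, and some changed sign. Chemokine receptors and integrins, for example, lay below all loci with the authors' scaling (0.30 against 0.33). With quantile normalization they lay above all loci (-0.05 against -0.11). Of 154 named genes that rose or fell, 144 kept that call with equal sums, 144 with median of ratios and 139 with quantile normalization. Many of these genes were named for the size of their change, so this does not measure how calls held in general. Over all loci 1231, 1268 and 1022 of the 1762 rises were kept, and all 489 falls. Equal sums and median of ratios could cost named rises but no named falls. The cause of these shifts was not tested. The single libraries set the limit: bounds from reads cover counting error only.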

Other observations

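Runs of at least 4 neighbouring tested loci that changed the same way numbered 17 for rises and 4 for falls, the longest holding 5 loci. On chromosome 10 (mm9 75233978 to 75322995) the cytokine gene Mif, its relative Ddt and the glutathione transferases Gstt1, Gstt2 and Gstt3 all rose. On chromosome 15 (mm9 78229986 to 78360081) Il2rb rose with Tst, Mpst, Kctd17 and C1qtnf6, and on chromosome 13 (mm9 30751965 to 32430413) Irf4 rose with Dusp22, Exoc2 and Gmds. Without strand in the counting, reads of overlapping neighbours cannot be told apart, and no chance level for such runs was computed.

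The linker histone gene Hist1h1c fell, from 32.4 FPKM in naive cells to 1.55, 1.77 and 2.13 FPKM in Th1, Th2 and Th17 cells, and was the only fall among 18 replication-dependent histone genes. In that list 4 genes rose (22.2%, against 15.7% of all loci), each from under 0.6 FPKM: Hist1h3c, Hist1h2ag, Hist1h2bj and Hist1h2ab. With quantile normalization 1 rose and 3 fell, so these counts depend on the scale, and the lower counting bound on the log2 difference of Hist1h2ab in Th1 cells was -0.16. Of 27 histone methylation and chromatin regulators 6 rose (22.2%) and 1 fell (3.7%), with a median of 0.39 that was -0.04 with equal sums. Among the rises were the Polycomb methyltransferase Ezh2 (9.68 FPKM against 49.3, 117 and 45.7) and the remodeller Hells (1.59 FPKM against 19.1, 32.6 and 13.2). The fall was the methyltransferase gene Mll1 (40.5 FPKM against 15.7, 14.1 and 16.1). Chemokine receptors and integrins had 4 rises and 4 falls among 26, which is 15.4% each, against 15.7% rises and 4.36% falls over all loci. Ccr4 rose (0.282 FPKM against 29.1, 105 and 19.1), as did the integrin Itgb1, while the integrins Itga4 (51.7 FPKM against 6.65, 3.39 and 14.8) and Itgb7 fell. The median of that list was 0.30 and turned to -0.14 with equal sums.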
